A study of Mus musculus with 7 samples.

Results

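NF-kappaB is a family of DNA-binding proteins held in check by inhibitors that are among its own target genes, and the transcripts of both were followed here in macrophages from glioblastoma xenografts of mice given Pracinostat or its solvent. The 10 genes were taken by symbol from a table of 25571 rows, of which 15822 had enough counts to be tested. They comprise 5 DNA-binding subunits (Nfkb1, Nfkb2, Rela, Relb and Rel) and 5 inhibitors or regulators (Nfkbia, Nfkbib, Nfkbie, Nfkbiz and Tnfaip3). All 10 were found in the table, and all 10 passed the filter on low counts. The family was chosen by earlier fold changes of Tnfaip3, Nfkbia and Nfkbiz in these same libraries, so the values of the members are a description and none of them is independent support.

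In a resting macrophage, dimers of the subunits sit in the cytoplasm bound to IkB proteins. Signals from Toll-like, interleukin-1 and TNF receptors activate the IkB kinases, the IkB protein is degraded, and the dimers enter the nucleus and switch on inflammatory genes. Among the genes switched on are Nfkbia and Tnfaip3, whose proteins end the response, so that the level of these transcripts is widely used as a readout of recent NF-kappaB activity. In brain tumours the pathway is active in microglia and in macrophages derived from blood monocytes, and both kinds of cell carry the CD11b used for the sort.

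The Pracinostat group held 4 libraries of CD11b+ cells from NSG mice with orthotopic T387 xenografts, dosed by mouth with the deacetylase inhibitor at 30 mg/kg on 4 days a week over 3 weeks, from day 7 after implantation. Another part of the labels gives 3 mg/kg for the drug as prepared, and the sources used here do not settle which dose was given. The DMSO group held 3 libraries from mice with the same tumours that received the solvent mixture on the same schedule. All animals thus share the NSG background, which lacks T, B and NK cells, and a single tumour line. Neither the age or sex of the mice nor the mouse behind each library is given in the labels, so the spread between libraries may in part be technical. Totals ran from 10142753 to 16950597 counts per library. Itgam, which encodes CD11b, averaged 1812 ± 521.3 CPM (SD, n = 4) with Pracinostat and 1472 ± 192.4 CPM (SD, n = 3) with DMSO, where CPM is counts relative to the TMM-scaled library size. The 16 macrophage and microglia markers held 1.29 to 1.76% of counts with Pracinostat and 1.19 to 1.45% with DMSO. T, B and NK cell markers held at most 0.00114% with Pracinostat and 0.00408% with DMSO. Dendritic cell markers held 0.0347 to 0.0539% with Pracinostat and 0.0355 to 0.0383% with DMSO, and endothelial and mural markers 0.0249 to 0.0682% with Pracinostat and 0.0587 to 0.0739% with DMSO. Collagen and fibroblast markers set 2 libraries apart, Pracinostat replicate 1 (0.0852% of counts) and DMSO replicate 2 (0.12%). The remaining Pracinostat libraries held 0.00584 to 0.017% and the remaining DMSO libraries 0.00601 and 0.00782%. Oligodendrocyte markers were also highest in Pracinostat replicate 1, at 0.101% of counts. They held 0.02225 to 0.03697% in the remaining Pracinostat libraries and 0.01888 to 0.03789% with DMSO.

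The upstream sequences of members are shown because kappaB sites in them are the textbook route by which NF-kappaB acts on its own family. RefSeq promoter windows (build GRCm38.p6) were at hand for 7 of the 10 members by symbol, with 10 windows in all because Nfkb2 and Tnfaip3 have more than 1 annotated start. The 250 bases before each start were searched on both strands for the kappaB consensus, and 7 of the 10 windows held a match, which came from 5 of the 7 genes. Of the 32851 windows of all genes, 7.25% held a match. The last 130 bases before the start of the first listed window are printed 5′ to 3′ on the gene's strand, with matches to the consensus in capitals.
Nfkbia, chr12:55492648-55492777, minus strand: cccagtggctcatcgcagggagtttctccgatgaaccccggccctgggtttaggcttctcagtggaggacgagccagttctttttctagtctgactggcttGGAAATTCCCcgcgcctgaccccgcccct
Tnfaip3, chr10:19015411-19015540, minus strand: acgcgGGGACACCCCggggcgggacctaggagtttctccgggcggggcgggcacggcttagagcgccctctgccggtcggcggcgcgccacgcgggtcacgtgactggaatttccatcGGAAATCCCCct
Nfkbie, chr17:45555570-45555699, plus strand: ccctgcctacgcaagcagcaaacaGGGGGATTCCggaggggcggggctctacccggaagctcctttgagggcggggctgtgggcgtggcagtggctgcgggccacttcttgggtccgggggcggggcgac
Nfkb2, chr19:46304607-46304736, plus strand: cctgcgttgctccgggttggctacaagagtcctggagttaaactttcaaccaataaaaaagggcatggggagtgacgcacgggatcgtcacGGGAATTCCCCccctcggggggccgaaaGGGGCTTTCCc
Rel, chr11:23770970-23771099, minus strand: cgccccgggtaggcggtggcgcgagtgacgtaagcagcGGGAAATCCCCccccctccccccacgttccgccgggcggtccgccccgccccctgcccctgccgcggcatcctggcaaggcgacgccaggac

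The match nearest a start among the inhibitors was GGGGATTTCC in Tnfaip3, 12 to 3 bases before it on the opposite strand. In Nfkbia the match was GGGAATTTCC, 29 to 20 bases before the start on the opposite strand, and in Nfkbie it was GGGGGATTCC, 106 to 97 bases before it. Some of the capitals cover matches on both strands, among them GGGAATTCCC in Nfkb2, GGGAAATCCC in Rel and GGGACACCCC in Tnfaip3. Rela and Nfkbib had no match in this window. A match is a run of letters and does not show that a site is bound in these cells.

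All 5 inhibitors and all 5 subunits had higher mean levels with Pracinostat than with DMSO, and the inhibitors differed by more. Log2 fold changes (Pracinostat over DMSO, from edgeR) ran from 0.53 to 0.88 for the inhibitors, with a mean of 0.74, and from 0.21 to 0.56 for the subunits, with a mean of 0.34. Among all genes tested the median was 0.02 and 52.3% were positive. No member passed the test across all genes, and neither did any other gene, since edgeR gave 0 of 15822 an adjusted p under 0.05 (0%), with a smallest value of 0.482, and limma-voom also called 0. At an unadjusted p under 0.05, edgeR had 5 of the 10 members on the higher side, all of them inhibitors, where the share over all genes was 2.81%, and none on the lower side, where it was 1.37%. DESeq2 called 27 genes (0.171%), of which 1 was a member, Tnfaip3 (adjusted p = 0.0464). Without the filter on low counts edgeR called 63 genes, among them Tnfaip3 (adjusted p = 0.000143), Nfkbie (0.00664), Nfkbiz (0.011) and Nfkbia (0.0159). The fold changes hardly moved in that fit, but the SEs did. The SE was 0.163 in place of 0.213 for Tnfaip3 and 0.196 in place of 0.24 for Nfkbie. For Nfkb1 it rose, to 0.181 from 0.144. In 4 of the 10 members no Pracinostat library overlapped with a DMSO library, always on the higher side, against 3.51% of all genes. The choice of the family used this same contrast, so nothing is read from these shares.

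**Figure D1:**
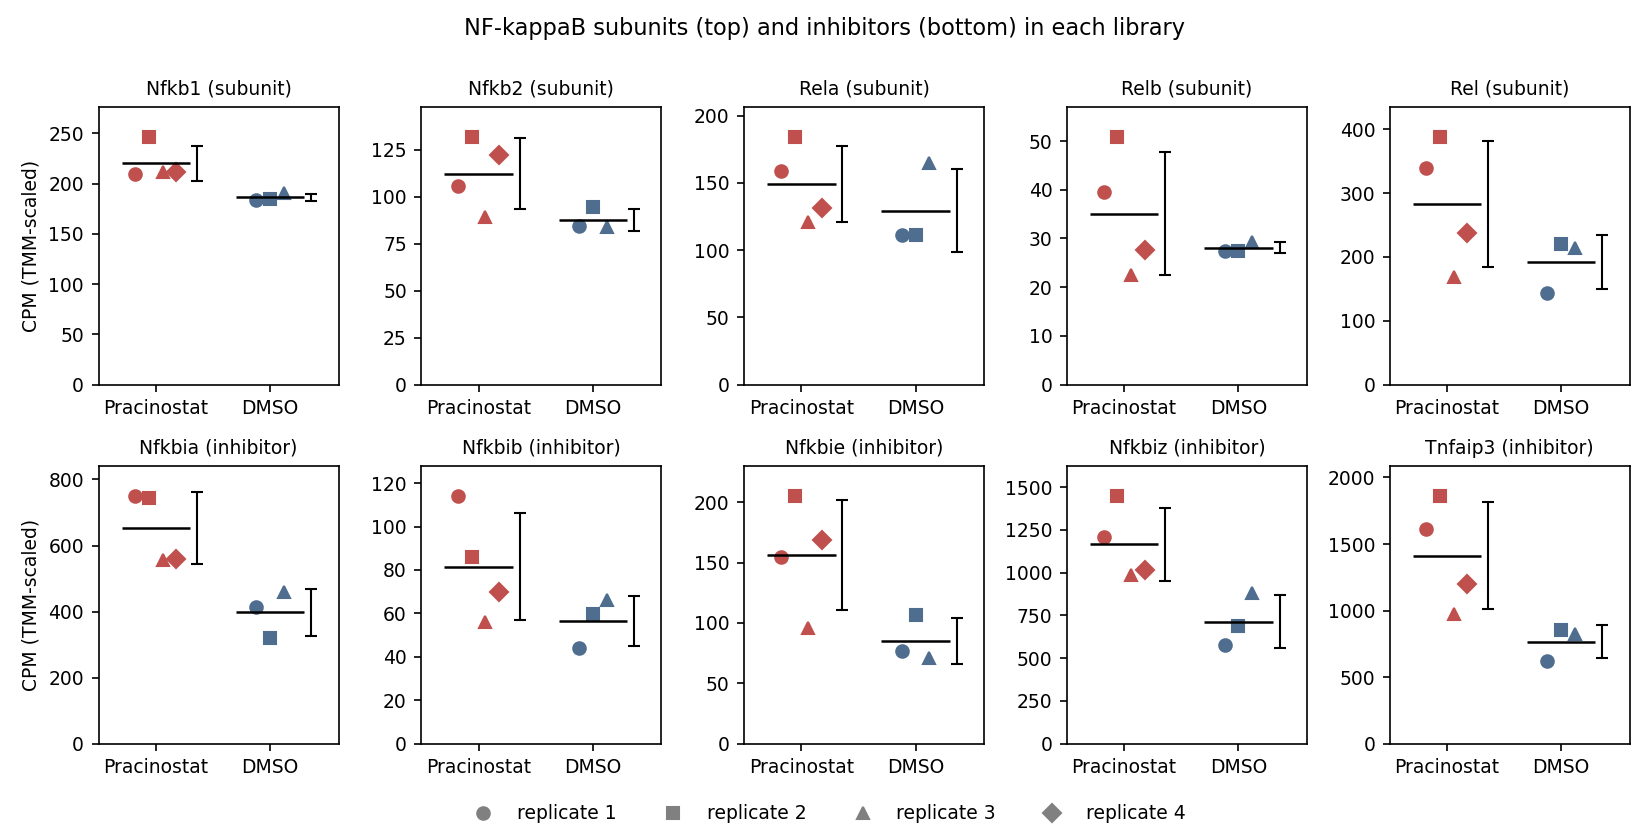
CPM (TMM-scaled) of each subunit (top row) and inhibitor (bottom row) in the 4 Pracinostat and 3 DMSO libraries. Symbols mark the replicate number, black lines the mean and bars the SD; the groups do not overlap for Nfkb1, Nfkbia, Nfkbiz and Tnfaip3.

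Tnfaip3 encodes A20, an enzyme that edits ubiquitin chains and so shuts down the signal above the IkB kinases. It stood at 1616, 1860, 974 and 1202 CPM in Pracinostat replicates 1 to 4, against 621, 853 and 826 CPM in DMSO replicates 1 to 3. Every Pracinostat library lay above every DMSO library, and Pracinostat replicate 3 came closest to the DMSO range. The log2 fold change was 0.88 ± 0.21 (SE), a fold of 1.84.

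Nfkbia encodes IkB alpha, the inhibitor that captures dimers with Rela and carries them out of the nucleus. It stood at 749.6, 744 and 555 CPM in Pracinostat replicates 1 to 3 and at 560.0 CPM in replicate 4, against 414, 321 and 460.1 CPM in the DMSO libraries. The groups were apart, with Pracinostat replicates 1 and 2 well above replicates 3 and 4. The log2 fold change was 0.71 ± 0.18 (SE), a fold of 1.64.

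Nfkbiz encodes IkB zeta, a nuclear member of the IkB family that is itself induced by NF-kappaB and acts on a set of secondary response genes, activating some of them. It stood at 1209, 1447, 985 and 1016 CPM with Pracinostat, against 575, 687.5 and 879 CPM with DMSO. The groups did not overlap, and Pracinostat replicate 3 was again the closest to the DMSO range. The log2 fold change was 0.71 ± 0.18 (SE).

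Nfkbie encodes IkB epsilon, an inhibitor that is made later in the response and binds dimers with Rela and Rel. It stood at 154, 205.1, 95.8 and 169.1 CPM with Pracinostat, against 76.9, 106.6 and 71.1 CPM with DMSO. Here the groups overlapped, because Pracinostat replicate 3 was below DMSO replicate 2. The log2 fold change of 0.88 ± 0.24 (SE) was as large as that of Tnfaip3, and it was 1.06 without Pracinostat replicate 3.

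Nfkbib encodes IkB beta, an inhibitor that is not strongly induced by NF-kappaB in the textbook scheme, and it had the smallest difference of the inhibitors. It stood at 114, 86.2, 56.2 and 69.9 CPM with Pracinostat, against 43.9, 59.8 and 66.2 CPM with DMSO. The groups overlapped and the log2 fold change was 0.53 ± 0.24 (SE), which came to 0.33 without Pracinostat replicate 1. Nfkbib shares exon sequence on the opposite strand with Sirt2 and Ccer2, and Nfkb2 with Psd, in the GENCODE M21 annotation of GRCm38. Since the strand setting of the counting is not given in the sources used here, reads of such pairs may not have been told apart.

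Of the subunits, Rel had the largest fold change. It encodes c-Rel, a subunit of lymphoid and myeloid cells with an activation domain. It stood at 339, 388, 169 and 237.5 CPM in the Pracinostat libraries, against 144, 220.4 and 213 CPM in the DMSO libraries. Pracinostat replicates 1, 2 and 4 lay above all DMSO libraries, while replicate 3 lay below 2 of them, and the log2 fold change was 0.56 ± 0.27 (SE). It was 0.37 without Pracinostat replicate 2, the library with the highest value.

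Rela encodes p65, the activating subunit of the canonical dimer. It stood at 159, 184, 121 and 132 CPM with Pracinostat, against 111, 112 and 165 CPM with DMSO. The groups overlapped widely, and with 0.21 ± 0.20 (SE) its log2 fold change was the smallest of the 10 members. It was 0.09 without Pracinostat replicate 2, 0.11 without DMSO replicate 1 or 2 and 0.42 without DMSO replicate 3.

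Nfkb1 encodes p105, the precursor of the p50 subunit that pairs with p65, and p105 itself also acts as an inhibitor. It stood at 209.9, 246, 212 and 212 CPM with Pracinostat, against 184, 185 and 190.3 CPM with DMSO. The groups did not overlap, yet the difference was small, with a log2 fold change of 0.24 ± 0.14 (SE). This gene had the tightest DMSO values of the family in CPM terms, with a coefficient of variation of 1.9%.

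Nfkb2 and Relb encode p100, the precursor of p52, and RelB, which together form the dimer of the non-canonical pathway. Nfkb2 stood at 106, 132, 89.3 and 122.5 CPM with Pracinostat, against 84.7, 94.6 and 83.9 CPM with DMSO (log2 fold change 0.36 ± 0.18, SE). Pracinostat replicate 3 lay within the range of the DMSO libraries. Relb stood at 39.5, 50.8, 22.6 and 27.7 CPM with Pracinostat, against 27.4, 27.5 and 29.4 CPM with DMSO (0.32 ± 0.29, SE). Pracinostat replicate 3 had the lowest Relb of all 7 libraries, and the log2 fold change was 0.49 without it and 0.09 without Pracinostat replicate 2. Set against the canonical subunits, those of the non-canonical pathway overlapped between the groups. The difference of log2 CPM between Relb and Rela averaged -2.13 ± 0.25 with Pracinostat and -2.17 ± 0.27 with DMSO (SD, n = 4 and n = 3). Between Nfkb2 and Nfkb1 it averaged -0.98 ± 0.19 with Pracinostat and -1.09 ± 0.11 with DMSO (SD, n = 4 and n = 3).

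**Figure D2:**
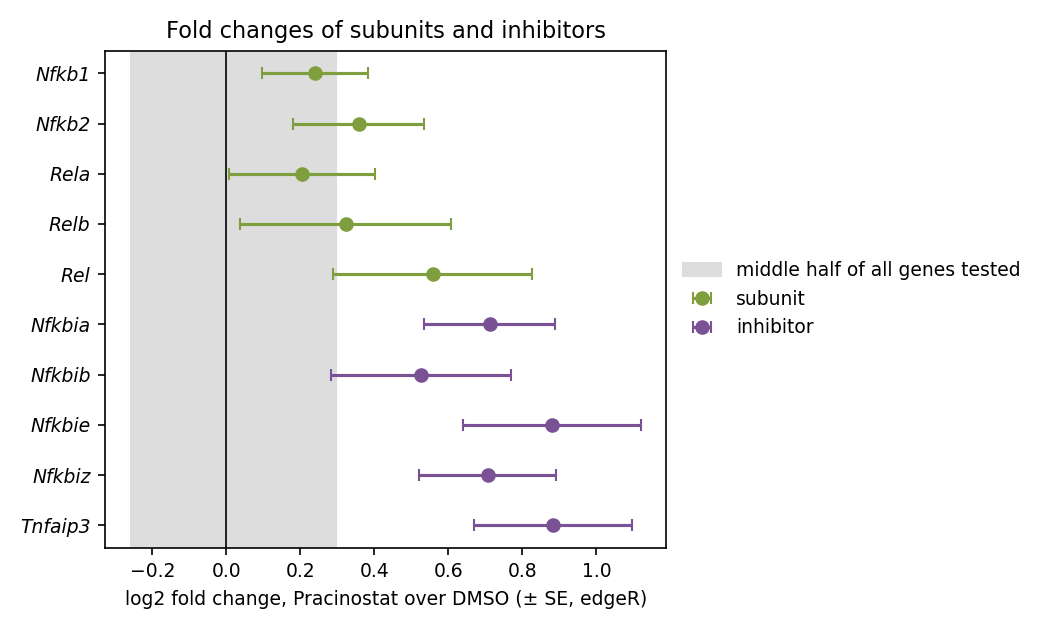
Log2 fold change (Pracinostat over DMSO) of each member from edgeR, with bars for the SE and a grey band for the middle 50% of all genes tested. The inhibitors lie between 0.53 and 0.88 and the subunits between 0.21 and 0.56.

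To set inhibitors against subunits within a library, the mean log2 CPM of the 5 subunits was subtracted from that of the 5 inhibitors, a difference that does not depend on how the library is scaled. It was 1.82, 1.645, 1.67 and 1.70 in Pracinostat replicates 1 to 4, against 1.24, 1.33 and 1.31 in DMSO replicates 1 to 3. The lowest Pracinostat library thus lay well above the highest DMSO library, and the spread within each group was small. The means were 1.71 ± 0.08 (SD, n = 4) with Pracinostat and 1.29 ± 0.05 (SD, n = 3) with DMSO, a gap of 0.41 on the log2 scale. No test was run on this contrast, because its genes were picked with the results known. The genes whose fold changes led to the choice, Tnfaip3, Nfkbia and Nfkbiz, are all on the inhibitor side, which favoured a positive gap in advance.

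The contrast was steadier than either side of it. The inhibitor mean alone ran from 8.28 to 9.002 log2 CPM with Pracinostat and from 7.77 to 8.11 with DMSO. The subunit mean ran from 6.61 to 7.36 with Pracinostat and from 6.54 to 6.79 with DMSO, and so overlapped. Pracinostat replicate 3, with the lowest inhibitor mean of its group, also had the lowest subunit mean, and its difference of 1.67 stayed with the other Pracinostat libraries. Leaving out any 1 library gave a gap of 0.38 to 0.43, and it was 0.40 without both collagen-rich libraries. The gap was 0.42 without Nfkbiz, which also activates genes, and 0.50 when medians replaced means. Tnfaip3 and Nfkbia stayed in all of these versions, so they do not show a gap apart from the genes that led to the choice. In summed counts, the inhibitors came to 4.50, 4.34, 4.34 and 4.13 times the subunits with Pracinostat, against 3.14, 3.17 and 3.38 times with DMSO.

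**Figure D3:**
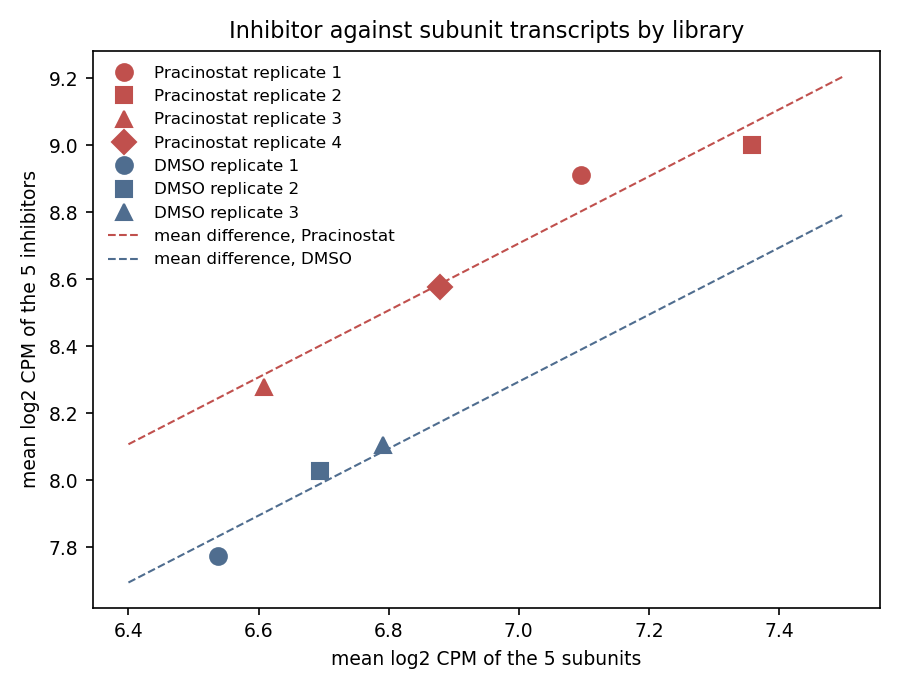
Mean log2 CPM of the 5 inhibitors (vertical) against that of the 5 subunits (horizontal) in each library, with dashed lines at each group's mean difference (1.71 with Pracinostat, 1.29 with DMSO). All 4 Pracinostat libraries lie above the line through the DMSO libraries, at low and high subunit levels alike.

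Single pairs were less clear than the means. Of the 25 pairs of an inhibitor and a subunit, 24 had a larger fold change for the inhibitor, the exception being Nfkbib against Rel (a difference of -0.03). In 8 pairs the log2 ratio was higher in every Pracinostat library than in any DMSO library, and in 0 pairs it was lower in all. All of these except Nfkbie over Relb involve Tnfaip3, Nfkbia or Nfkbiz, whose fold changes led to the choice of the family. No share over other pairs of genes was worked out, so nothing is read from this count. Nfkbia over Rela, the textbook pair of inhibitor and target, averaged 2.13 ± 0.10 on the log2 scale with Pracinostat and 1.63 ± 0.23 with DMSO (SD, n = 4 and n = 3). For Nfkbie over Rel the averages were -0.84 ± 0.27 with Pracinostat and -1.18 ± 0.36 with DMSO (SD, n = 4 and n = 3), which overlap. The 25 pairs share 10 genes and 7 libraries and are not independent.

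Many of the members also varied together from library to library, though not every pair did. With group means removed, Pearson's r of log2 CPM had a median of 0.695 over the 45 pairs of members. It ran from 0.082 for Nfkbia and Nfkbie to 0.996 for Rel and Tnfaip3. Pracinostat replicate 2 had the highest value of 8 members over all 7 libraries, and Pracinostat replicate 1 that of the other 2. Within the Pracinostat group, replicate 3 was lowest for 9 of the 10 members. DMSO replicate 1 was the lowest DMSO library for 7 of them. Pracinostat replicate 3 also differed in macrophage markers, with Mrc1 at 45.2 CPM where the remaining libraries had 261.6 to 409.8 CPM. It had the highest Itgam (2579 CPM), Csf1r (3004 CPM), Cx3cr1 (2239 CPM) and Tmem119 (379.8 CPM) of the 7 libraries, and the lowest Cd68 (846 CPM) and Tyrobp (146.5 CPM). The part of these differences in the result was not tested. Among neutrophil markers, S100a9 was at 0 CPM in Pracinostat replicate 3, where the remaining Pracinostat libraries had 22.5 to 49.4 CPM. S100a9 was also low in DMSO replicates 2 and 3, at 8.88 and 0.515 CPM, but stood at 45.8 CPM in DMSO replicate 1. The markers differed, since Mmp9 was at 52.1 and 115.8 CPM in those DMSO libraries and at 0 to 35 CPM with Pracinostat. Over the whole list of 13 neutrophil markers the share of counts was 0.0375 to 0.0599% with Pracinostat and 0.0388 to 0.0623% with DMSO. Csf3r, at 271 to 411 CPM across the 7 libraries, was the largest part of that share, which therefore says little about the other markers. The part of neutrophils in the result was not tested. Without Pracinostat replicate 3 the mean log2 fold change was 0.86 for the inhibitors and 0.45 for the subunits. Without Pracinostat replicate 2 it was 0.63 for the inhibitors and 0.20 for the subunits. In these bulk samples, more cells that express a gene and more RNA per cell cannot be told apart.

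Per kilobase of the longest coding transcript in GENCODE M21, Nfkbia, Tnfaip3 and Nfkbiz stood well above the other members in both groups. On this scale the mean level of Nfkbia was 413 CPM per kb with Pracinostat and 252 with DMSO, that of Tnfaip3 was 319.5 with Pracinostat and 173 with DMSO, and that of Nfkbiz was 283 with Pracinostat and 173 with DMSO. Nfkbie came to 64.1 CPM per kb with Pracinostat and 34.8 with DMSO, Rela to 54.9 with Pracinostat and 47.6 with DMSO, and Nfkb1 to 53.4 with Pracinostat and 45.3 with DMSO. With Pracinostat, Nfkbib stood at 39.6, Rel at 38.0, Nfkb2 at 29.2 and Relb at 15.9 CPM per kb. With DMSO, Nfkbib stood at 27.5, Rel at 25.8, Nfkb2 at 22.8 and Relb at 12.7 CPM per kb. Rela and Nfkb1 differed by less than the SD of Rela (10.4 with Pracinostat and 11.4 with DMSO). Nfkbiz and Tnfaip3 likewise differed by less than their SDs. Nfkbie lay above Rela and Nfkb1 in mean level with Pracinostat and below both with DMSO, with an SD of 18.7 in the Pracinostat group.

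Genes that carry the signal to NF-kappaB were centred near the median of all genes. Of 30 genes of the receptor adaptors, ubiquitin ligases and IkB kinases, 30 were tested, 12 had positive and 18 negative fold changes, and the median was -0.06, against 0.02 for all genes. By edgeR 0 passed. At an unadjusted p under 0.05, where all genes had 2.81% higher and 1.37% lower, 1 was higher (3.33%) and 1 lower (3.33%). These were subunits of the same kinase complex. Chuk, the catalytic IKK alpha, stood at 66.7, 63.6, 53.0 and 56.0 CPM with Pracinostat, against 48.4, 39.3 and 43.5 CPM with DMSO (log2 fold change 0.45 ± 0.20, SE). Ikbkg, the regulatory subunit NEMO, stood at 26.8, 38.2, 27.9 and 36.3 CPM with Pracinostat, against 45.1, 45.4 and 48.9 CPM with DMSO (-0.53 ± 0.22, SE). Neither gene's groups overlapped. Ikbkb, the catalytic IKK beta, was at -0.10 ± 0.17 (SE), with a sign that turned without Pracinostat replicate 3 (0.01) or DMSO replicate 2 (0.01). The ubiquitin-conjugating enzyme Ube2n (0.33 ± 0.19, SE) and the adaptor Ticam2 (0.33 ± 0.20, SE) were on the positive side, and Rbck1, part of the linear ubiquitin ligase (-0.33 ± 0.18, SE), and the adaptor Tirap (-0.49 ± 0.30, SE) were on the negative side. Without DMSO replicate 2, Ube2n was at 0.21 and Tirap at -0.22. Map3k14, the kinase NIK of the non-canonical pathway, was at 0.34 ± 0.39 (SE) and rested on Pracinostat replicate 4 (142 CPM), without which it was at -0.01, while it was 0.55 without Pracinostat replicate 3, 0.67 when DMSO replicate 2 was left out and 0.08 when DMSO replicate 3 was.

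Other regulators of the pathway had log2 fold changes in both directions, from -0.39 (Sigirr) to 0.42 (Bcl3). They include the nuclear IkB proteins outside the 5 inhibitors, the partners of A20 and other deubiquitinases. Of 24 such genes tested, 15 were positive (62.5%, against 52.3% of all genes), with a median of 0.11. By edgeR 0 passed, and 1 (4.17%) was higher at an unadjusted p under 0.05, against 2.81% of all genes. That gene was Nfkbid, another nuclear IkB protein, at 0.41 ± 0.17 (SE) with overlapping groups. The median of the list was 0.056 without Pracinostat replicate 2, 0.186 without Pracinostat replicate 3, and 0.025 without Pracinostat replicate 4. It was 0.038 when DMSO replicate 2 was left out, 0.065 when DMSO replicate 3 was left out and 0.014 in a fit blocked on replicate number. Bcl3, a nuclear IkB protein that binds p50 and p52, was at 0.42 ± 0.27 (SE), with 0.18 without Pracinostat replicate 2 and 0.24 without DMSO replicate 3. Tnip1, a partner of A20, was at -0.31 ± 0.20 (SE), with -0.20 without Pracinostat replicate 3 and -0.46 in the block. Cyld, a deubiquitinase, was at 0.12 ± 0.21 (SE), with -0.03 without Pracinostat replicate 4, 0.24 without Pracinostat replicate 1 and 0.04 without DMSO replicate 3. Zfp36, which destabilises cytokine mRNAs, was at 0.27 ± 0.17 (SE), with 0.13 without Pracinostat replicate 2. Otud7b, another deubiquitinase, was at 0.39 ± 0.25 (SE), with 0.25 without Pracinostat replicate 4 and 0.24 in the block.

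Target genes of NF-kappaB lay on the same side as the inhibitors. Of 40 tested from a list of 42, 35 were positive (87.5%, against 52.3% of all genes), with a median of 0.60. By edgeR 0 passed across all genes. At an unadjusted p under 0.05 there were 20 higher (50%) and 1 lower (2.5%), against 2.81% and 1.37% of all genes. DESeq2 called 4 of them, where it called 0.171% of all genes. Several of these targets were known to be high in these libraries when the list was drawn up, so its counts add no independent evidence of direction. Nlrp3, the inflammasome sensor, stood at 788.5, 974, 568 and 676 CPM with Pracinostat, against 305, 396 and 399 CPM with DMSO (1.04 ± 0.19, SE). Csf1, the macrophage growth factor, was at 1.03 ± 0.21 (SE), and Tlr2, a receptor for bacterial lipoproteins, at 0.71 ± 0.16 (SE). Tnf, an inducer and a target of the pathway, was at 0.94 ± 0.27 (SE) and the adhesion molecule Icam1 at 0.64 ± 0.20 (SE), both with overlapping groups. The list was not uniform. Il1b, the cytokine interleukin-1 beta, ranged from 174 to 935 CPM with Pracinostat and from 186 to 466 CPM with DMSO (0.80 ± 0.67, SE), and its fold change was 0.49 without DMSO replicate 3. The chemokine Cxcl2 was at 0.12 ± 0.51 (SE), with -0.34 without Pracinostat replicate 1. Nos2, inducible nitric oxide synthase, was at -1.41 ± 0.54 (SE), with -0.91 without DMSO replicate 1. Ccl2 was at -0.17 ± 0.19 (SE), with -0.06 without Pracinostat replicate 2, -0.35 without Pracinostat replicate 3, -0.26 when DMSO replicate 2 was left out and -0.05 when DMSO replicate 3 was. Ccl5 was at -0.12 ± 0.35 (SE), with a sign that turned without DMSO replicate 1 (0.01) or DMSO replicate 2 (0.15).

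**Figure D4:**
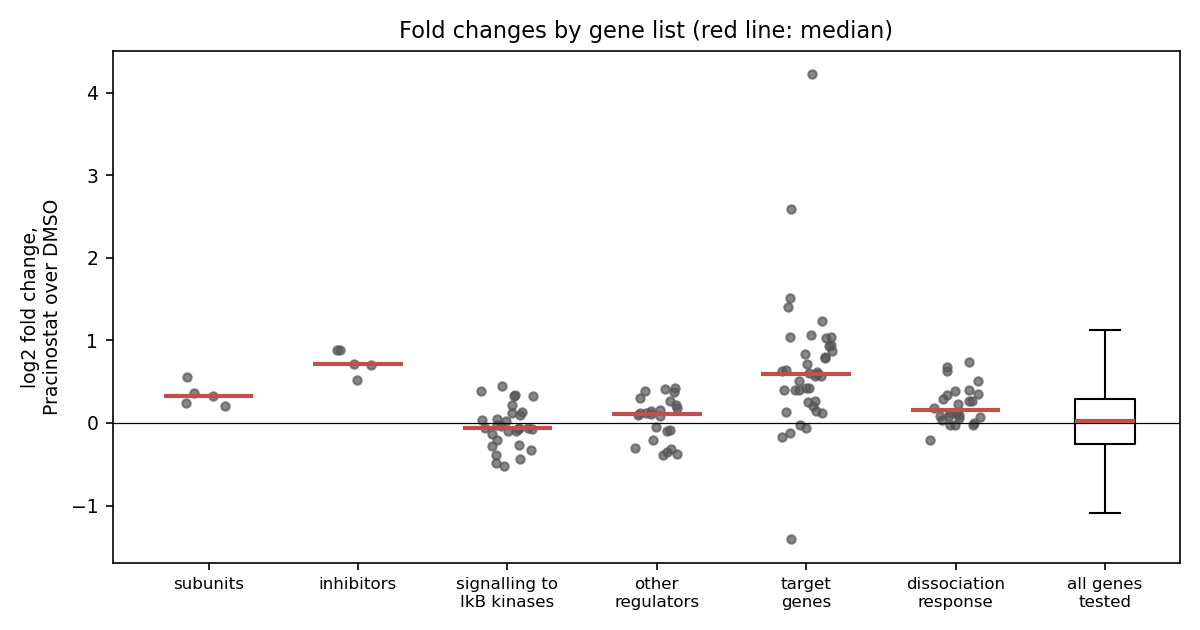
Log2 fold change (Pracinostat over DMSO) of each tested gene in 6 lists, with red lines for medians and a box plot of all genes tested (box, quartiles; whiskers, 1.5 times the interquartile range, outliers not drawn). Inhibitors (median 0.71) and target genes (0.60) lie above zero, while signalling genes (-0.06) centre near it.

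Some members are also induced when tissue is dissociated, and Nfkbia and Nfkbiz are commonly named among such genes. The 26 immediate-early and dissociation-response genes held 2.02, 2.31, 1.85 and 1.91% of counts with Pracinostat, against 1.62, 1.72 and 1.98% with DMSO. The groups overlapped, and the library with the largest share, Pracinostat replicate 2, was also the highest for most members. Of these genes 22 of 26 were positive (84.6%, against 52.3% of all genes), with a median of 0.15. By edgeR 0 passed. At an unadjusted p under 0.05, 5 were higher (19.2%) and 0 lower, against 2.81% and 1.37% of all genes. The median was 0.09 without Pracinostat replicate 2, 0.24 without Pracinostat replicate 3, 0.23 without Pracinostat replicate 4 and 0.32 without DMSO replicate 3. Dnajb1, a heat shock co-chaperone, was at 0.63 ± 0.18 (SE), Egr1 at 0.51 ± 0.18 (SE) and Egr3 at 0.68 ± 0.25 (SE). Egr3 was at 0.41 without DMSO replicate 1 and at 1.02 without DMSO replicate 3. Fos, a subunit of AP-1, was at -0.20 ± 0.15 (SE) and at -0.10 without Pracinostat replicate 3. Hspa1a was at -0.03 ± 0.25 (SE) and Ier3 at -0.02 ± 0.19 (SE), and both turned sign on leaving out single libraries of either group. Junb and Ier3 also stand in the list of targets and Zfp36 among the other regulators. The part of tissue processing in the values of the members was not tested.

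The genes with the most similar patterns over the 7 libraries were looked up among 10034 genes with an assigned symbol whose log2 CPM averaged 2 or more. By Pearson's r of log2 CPM, Tnfaip3 was closest to Nlrp3 (0.981) and Cd83 (0.977), and Nfkbia to Bcl2a1b (0.988) and Bcl2a1a (0.965), near-identical genes that share reads. Nfkb2 and Nfkbie were each second on the other's list (0.975). The nearest gene was Znrd2 for Nfkbiz (0.991), Usp11 for Nfkb1 (0.981), Mex3c for Rela (0.988) and Pspc1 for Rel (0.97). With 7 libraries in 2 groups and so many genes compared, values this high describe the resemblance and carry no test.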

How the data were processed

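RNA of sorted CD11b+ cells was sequenced as 7 libraries. The authors deposited expected counts (the estimates RSEM makes) for each gene symbol, as whole numbers without normalization. Per the submitters' processing notes, the tools were STAR, RSEM, DESeq2, Trim Galore, MultiQC and FastQC and the build GRCm39, without versions or roles. No annotation or strand setting is stated there. The kit was stranded and used 1 ng of RNA, per the labels' protocols.

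Pracinostat was compared with DMSO by edgeR 4.0.16 (R 4.3.3) with TMM scaling, filterByExpr (minimum count 10), a robust quasi-likelihood fit and Benjamini-Hochberg adjustment over 15822 genes, with a threshold of 0.05. The SE is the log2 fold change divided by the square root of F. Log2 CPM used a prior count of 2. DESeq2 1.42.0, limma-voom (limma 3.58.1), other scalings and filters, a replicate block and leaving out libraries were the alternatives. The fit was also run on simulated data with fold changes larger than those of the members. That run does not show how often differences of the members' size would be called. No pair of libraries looked like a duplicate (the smallest chi-square was 38.8 per degree of freedom).

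The members and gene lists were chosen with earlier results of these data known. Named genes are the members, up to 3 genes on each side per list with the smallest p whose log2 CPM averaged 2 or more, and 13 chosen in advance. Coordinates and promoter sequences are those of the RefSeq table on GRCm38.p6, not of the build the counts used.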

Additional observations from a re-analysis of the deposited data

Results flagged for a closer look

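A screen of 69 values looked for a Pracinostat library set apart from its group by Dixon's criterion at the 95% level. It found 3, where about 1 in 20 groups would be picked out by chance. For Nfkb1 this was Pracinostat replicate 2, with 246.3 CPM where the rest of its group had 209.9 to 211.9 CPM and the DMSO libraries 183.8 to 190.3 CPM. For Egr3, an immediate-early transcription factor, it was Pracinostat replicate 3, with 443.2 CPM where the rest had 319.9 to 339.9 CPM and DMSO libraries 131.4 to 318 CPM. For collagen and fibroblast markers it was Pracinostat replicate 1, with 0.08515% of counts where the rest had 0.005844 to 0.01696% and DMSO libraries 0.006011 to 0.1203%. The DMSO group, with 3 libraries, was not screened.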

How the results depend on the processing

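All 10 members kept a positive fold change in each of the 16 alternatives tried for them, and the mean log2 fold changes of inhibitors (0.63 to 0.86) and subunits (0.20 to 0.45) moved by less than 1 SD between replicates. The gap between inhibitors and subunits ranged from 0.38 to 0.50 over 19 alternatives, and the highest, with medians in place of means (0.501), was the only one past that spread. The count of genes called was 0 as reported, 63 with no low-count filter, 27 with DESeq2, 4 with the replicate number as a block and 0 to 3 on leaving out 1 library, the 3 without DMSO replicate 3. The count of members called was 4 with no filter, 1 with DESeq2 and 0 in the block and on leaving out any 1 library. Why the unfiltered fit gave more was not tested. The labels do not say what equal replicate numbers mean. Deviations of same-numbered libraries correlated at 0.0763, 0.0386 and 0.156, and those of unlike numbers at -0.0983 to 0.0729. Pracinostat replicates 1, 2 and 3 each correlated best with the DMSO library of the same number. DMSO replicate 2, however, correlated best with Pracinostat replicate 4, and all values were low, so pairing was neither established nor excluded. The median of the genes that signal to the IkB kinases ran from -0.106 to 0.016. Signs turned for 8 genes outside the 10 members. Leaving out 1 library gave -0.155 to 0.01 for Ikbkb, -0.009 to 0.669 for Map3k14, -0.619 to 0.063 for Commd1, -0.026 to 0.236 for Cyld, -0.452 to 0.147 for Ccl5, -0.345 to 0.356 for Cxcl2, -0.28 to 0.116 for Hspa1a and -0.123 to 0.139 for Ier3. In the block Cyld was at -0.02 and Hspa1a at 0.069, limma-voom gave Cxcl2 at -0.084, and without both collagen-rich libraries Ccl5 was at 0.165, Cxcl2 at -0.267 and Hspa1a at 0.108. Whether more libraries or deeper sequencing would change the calls for the subunits was not tested.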
